A study of Caenorhabditis elegans with 6 samples.

Results

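miR-77-3p is the 3p mature product of the mir-77 hairpin of *Caenorhabditis elegans*. It is 1 of the 437 microRNAs (miRNAs) listed, and it was selected on its read counts, by its lower level in cadmium-exposed than in control worms of these same libraries. The row named cel-miR-77-3p was read from each library's count file. Because this contrast chose it, its own levels and change are described here and not tested.

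The libraries were small RNA libraries from whole worms of the wild-type N2 strain. A set of 3 came from cadmium-exposed worms and a set of 3 from untreated controls. Per the labels, cadmium chloride at 60 µmol/L was mixed into nematode growth medium, on which L4 larvae were kept at 20 °C with the bacterium OP50 to eat, and the length of exposure is not stated. Nothing says whether the libraries of a group came from separate cultures, so the p-values measure only the spread between these libraries, which may be technical.

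A miRNA gene is transcribed as a precursor that folds into a hairpin, and the enzymes Drosha and Dicer cut a short duplex from its stem. An Argonaute protein usually keeps 1 arm of that duplex, the guide, while the other arm, the passenger, is mostly degraded. The guide lowers the output of messenger RNAs that pair with its seed, the bases near its 5′ end. Cadmium is a toxic metal that binds thiol groups, and worms answer it with metallothioneins and other protective proteins.

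In the WBcel235 genome, the mir-77 hairpin lies on chromosome II from 12519268 to 12519367 on the plus strand, by the Ensembl release 115 annotation. The annotation places its arms at 12519291 to 12519312 and at 12519329 to 12519350, 22 bases each. By their order on the plus strand these are the 5p and the 3p arm. The hairpin is intergenic, with 0 annotated genes overlapping it. A small nucleolar RNA gene, T21B4.20, ends 50 bases before it on the same strand. The nearest protein-coding genes are srh-70, a serpentine receptor gene on the opposite strand that lies 408 bases before the hairpin, and ceh-99, a homeobox gene on the same strand that starts 613 bases after it. These positions are the annotation's, since the deposited counts come without any.

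Library totals ran from 2580305 to 3781534 counts in cadmium libraries and from 1640693 to 3917414 in control libraries. Between 286 and 319 miRNAs were detected per library. Across the whole table, 208 miRNAs had enough counts to be tested with edgeR's quasi-likelihood test, and 25 of them (12.0%) were called lower in cadmium at an adjusted p under 0.05. Another 20 (9.62%) were called higher, and the tested miRNAs had a median log2 fold change of 0.0039. With scaling to the library total, 30 were lower and 9 higher, and that median moved to −0.16. The calls numbered 27 without cadmium replicate 2 (17 of them lower) and 22 without control replicate 3 (13 of them lower).

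miR-77-3p was abundant in every library and was among the tested miRNAs. It had 9352, 11052 and 6146 counts in cadmium replicates 1 to 3, and 17544, 28002 and 42252 counts in control replicates 1 to 3. As a share of all miRNA counts this was 0.279%, 0.292% and 0.238% in the cadmium libraries, against 1.07%, 1.15% and 1.08% in the control libraries. The groups did not overlap: every cadmium share lay well below every control share. The exact Clopper-Pearson 95% intervals of these shares, which cover counting error only, ran from 0.232% to 0.298% at the outermost in cadmium and from 1.05% to 1.17% in control libraries.

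Levels between libraries were compared as counts per 1000000 counts (CPM), scaled by the trimmed mean of M-values (TMM), a factor that allows for changes in a library's makeup. On this scale miR-77-3p stood at 2653, 3266 and 2745 CPM in cadmium libraries and at 9370.5, 10818 and 10721 CPM in control libraries. The means were 2888 ± 331 CPM under cadmium and 10303 ± 809 CPM in controls (SD, n = 3 each), so the cadmium mean was 28.0% of the control mean. Over the 9 pairs of a cadmium and a control library, the control level was between 2.87 and 4.08 times the cadmium level. No single library set the separation, since even the highest cadmium library was 1.52 below the lowest control library on the log2 scale.

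The fitted log2 fold change of cadmium over control was −1.84 (SE 0.176). It ran from −1.93 to −1.78 when single libraries were left out. Among the 208 tested miRNAs, 6 had a more negative fitted change, and 5 of these 6 were guide arms of the miR-35 family. Non-overlap in the same direction was seen for 43 of the 208 (20.7%). With scaling to the library total the change was −2.03, against a median of −0.16 for all tested miRNAs.

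**Figure D1:**
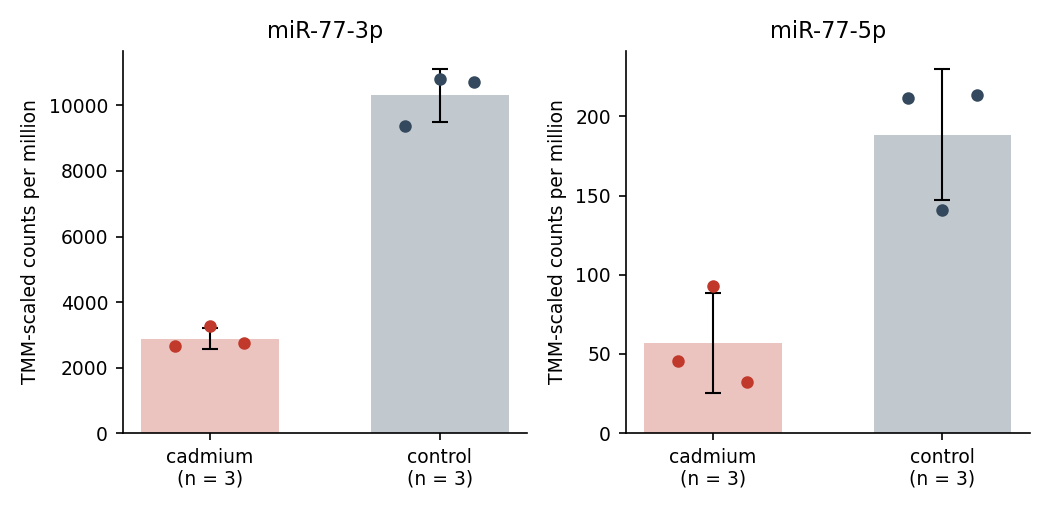
Level of miR-77-3p (left) and of its passenger arm miR-77-5p (right) in TMM-scaled CPM, with points for the 3 cadmium and the 3 control libraries, bars for group means and error bars for SD. miR-77-3p averaged 2888 CPM under cadmium and 10303 CPM in controls, and in both panels every cadmium point lies below every control point.

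The lower level moved miR-77-3p down the order of abundance. It ranked 38th, 38th and 40th among all listed miRNAs in cadmium replicates 1 to 3, against 23rd, 21st and 23rd in control replicates 1 to 3. By mean level over all 6 libraries it ranked 29th. The miRNAs directly above it in that order were miR-54-3p and let-7-5p, and those directly below were miR-70-3p and miR-73-3p. Of these neighbours, miR-54-3p averaged 7019 ± 989 CPM under cadmium and 7022 ± 737 CPM in controls, and miR-73-3p 6294 ± 1302 CPM under cadmium and 6352 ± 607 CPM in controls. miR-77-3p thus lay below both in all 3 cadmium libraries and above both in all 3 control libraries. let-7-5p, a regulator of the larval-to-adult switch, averaged 8279 ± 2606 CPM under cadmium and 5616 ± 1106 CPM in controls, with overlapping groups (log2 fold change 0.56, SE 0.245, adjusted p 0.126 in edgeR).

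miR-70-3p was the neighbour that moved with it. It averaged 3542 ± 534 CPM under cadmium and 9110 ± 720 CPM in controls, and it fell (log2 fold change −1.36, SE 0.181) at an edgeR adjusted p of 0.000392. The ratio of miR-77-3p to miR-70-3p within a library was 0.817, 1.01 and 0.660 in cadmium replicates 1 to 3, against 1.12, 1.10 and 1.18 in control replicates 1 to 3. The cadmium ratios were all below the control ratios, so the fitted fall of miR-70-3p was the smaller of the pair in these libraries. The difference between the groups was −0.47 on the log2 scale and was not tested, because the contrast chose miR-77-3p.

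**Figure D2:**
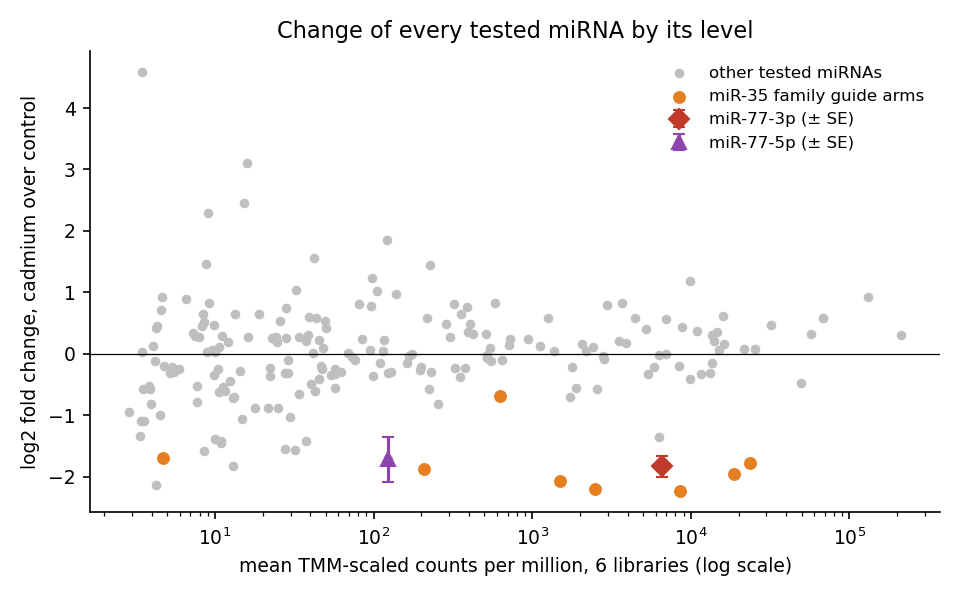
Log2 fold change of cadmium over control (vertical axis) against mean TMM-scaled CPM on a log axis, with 1 point for each of the 208 tested miRNAs. miR-77-3p (red diamond, −1.84 ± 0.176 SE) and miR-77-5p (purple triangle, −1.72 ± 0.366 SE) lie near the lower edge beside most guide arms of the miR-35 family (orange).

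Replicate libraries differed little in miR-77-3p. The coefficient of variation of its TMM-scaled level was 11.5% among cadmium libraries and 7.85% among control libraries. Counting error alone gives between 0.951% and 1.28% for the cadmium counts and between 0.486% and 0.755% for the control counts, so depth was not what limited the precision of its level. The SD within groups on the log2 scale, pooled over both groups, was 0.140 for miR-77-3p, which ranked 18th from the smallest, and the median over the 208 tested miRNAs was 0.314. Among the 20 tested miRNAs closest to it in mean level, 0 had a smaller SD, and theirs ran from 0.147 to 0.489. A small spread was part of why this miRNA was noticed, so these ranks are a description.

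**Figure D3:**
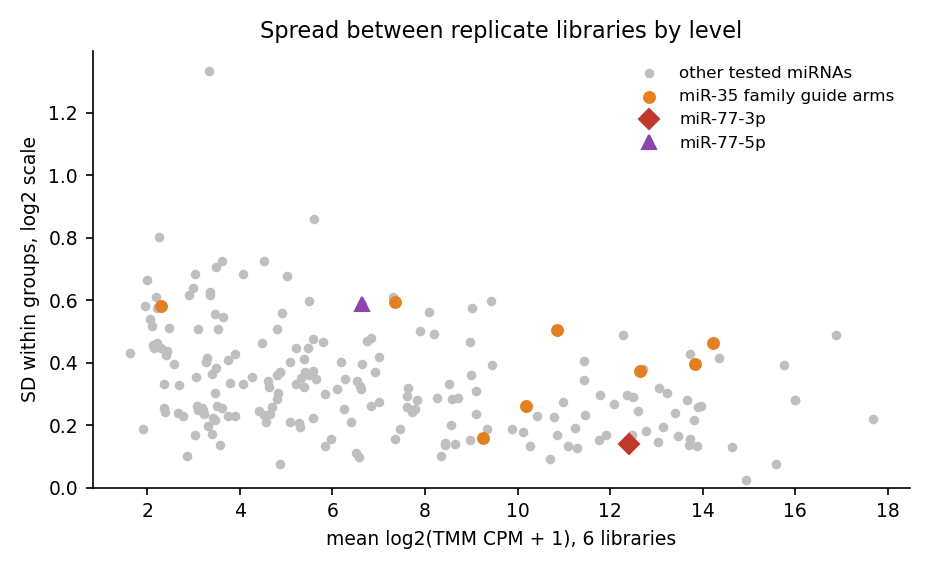
SD within groups of the log2 level, pooled over the cadmium and control libraries, against mean log2(TMM CPM + 1) for the 208 tested miRNAs. miR-77-3p (red diamond) lies at 0.140, under the guide arms of the miR-35 family (orange, 0.160 to 0.596) and under miR-77-5p (purple triangle, 0.587).

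The passenger arm miR-77-5p is counted from other reads of the same hairpin, and these were not used to choose miR-77-3p. It had 161, 314 and 73 counts in cadmium replicates 1 to 3 and 396, 364 and 841 counts in control replicates 1 to 3. On the TMM scale this was 45.7, 92.8 and 32.6 CPM in cadmium libraries and 212, 141 and 213 CPM in control libraries. The groups did not overlap, with cadmium replicate 2 the highest of its group and control replicate 2 the lowest of its own. Non-overlap in this direction held for 43 of the 208 tested miRNAs (20.7%). miR-77-5p fell by 1.72 on the log2 scale (SE 0.366), and edgeR gave it an adjusted p of 0.00704 over the 208 tested miRNAs. Its replicate spread was wider than that of the 3p arm, at 57.0 ± 31.7 CPM under cadmium and 189 ± 41.5 CPM in controls (SD, n = 3 each). It shares its precursor and its libraries with miR-77-3p, so its fall is no second, separate hairpin. For the same reason its adjusted p is not independent of the choice of miR-77-3p.

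Within each library the 3p arm far outnumbered the 5p arm. The ratio of 3p to 5p counts was 58.1, 35.2 and 84.2 in cadmium replicates 1 to 3, against 44.3, 76.9 and 50.2 in control replicates 1 to 3. These ranges overlapped, and the cadmium library with the highest 5p level, replicate 2, had the lowest ratio of all. The mean log2 ratio was 5.79 ± 0.63 under cadmium and 5.79 ± 0.42 in controls (SD, n = 3 each), and the difference had an SE of 0.400. A shift in arm balance within that error could not be seen with 3 libraries a group. Over the 63 hairpins whose arms both averaged at least 10 counts, 2 (3.17%) had a changed arm ratio at an adjusted p under 0.05 in limma, and mir-77 was not among them.

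Ratios within a library do not depend on how libraries are scaled. Against miR-1-3p, the muscle miRNA with the highest mean level here, miR-77-3p stood at 0.0115, 0.0127 and 0.0128 in cadmium libraries and at 0.0603, 0.0583 and 0.0467 in control libraries. Against miR-58a-3p, a member of the worm's bantam family, the ratio was 0.0233, 0.0218 and 0.0108 in cadmium libraries and 0.133, 0.0930 and 0.126 in control libraries. miR-45-3p, which has the same count as miR-44-3p in every library and with it comes next in level, gave 0.0365, 0.0374 and 0.0330 in cadmium libraries and 0.163, 0.271 and 0.163 in control libraries. In each case the cadmium libraries lay apart from and below the control libraries. Part of this lies in the denominators, since miR-58a-3p was itself called higher in cadmium (edgeR log2 fold change 0.93, adjusted p 0.0431). miR-45-3p was higher in all cadmium libraries but was not called (0.57, adjusted p 0.0656 in edgeR). miR-1-3p overlapped between the groups (0.30, adjusted p 0.296 in edgeR). Taken against each of the other 207 tested miRNAs in turn, the ratio was lower in all 3 cadmium libraries for 182 (87.9%), overlapped for 24 and was higher for 1. Of the 24 that overlapped, 16 were themselves called lower in cadmium, and 6 were guide arms of the miR-35 family. All 207 ratios share miR-77-3p, which was chosen for its fall, so a high share of lower ratios follows from that choice and is a description.

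**Figure D4:**
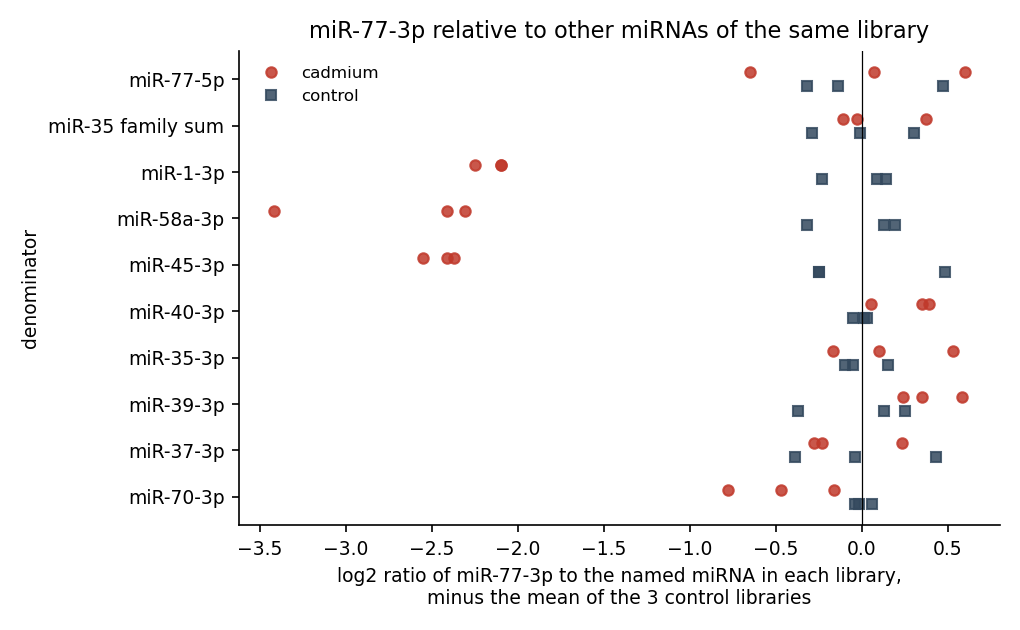
Log2 ratio of miR-77-3p to the miRNA named on the vertical axis within each library, less the mean of the 3 control libraries, with circles for cadmium and squares for control. Against the 3 most abundant miRNAs all cadmium points lie more than 2 below 0, while against miR-77-5p and the summed miR-35 family the groups overlap.

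The miR-35 family, whose guide arms miR-35-3p to miR-42-3p are known from oocytes and embryos and are needed for embryonic development, served as the list of embryo and germline markers. All 8 were detected in every library and all 8 were called lower in cadmium (edgeR, largest adjusted p 0.0297), against 12.0% of all tested miRNAs. These 8 are related members of a family and are themselves part of that 12.0%. The call of miR-41-3p rests on few reads, with 4, 8 and 8 counts in cadmium and 7, 20 and 38 in control libraries. The family's fall was known from earlier results of these data, so the count is a description. Their median log2 fold change was −1.92, against 0.0039 for all tested miRNAs, and they ran from −2.24 to −0.69. Their summed level was 17132 to 29405 CPM in cadmium libraries and 63548 to 109928 CPM in control libraries. That level moved with miR-77-3p, and its part in the lower level of miR-77-3p was not tested. In libraries of whole worms, fewer cells of a type and less RNA per cell cannot be told apart.

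Set against the summed family in the same library, miR-77-3p stood at 0.155, 0.111 and 0.117 in cadmium replicates 1 to 3, and at 0.147, 0.0984 and 0.119 in control replicates 1 to 3. The ranges overlapped, with the highest ratio in a cadmium library and the lowest in a control library. The sum follows its most abundant arms: miR-37-3p, miR-35-3p and miR-39-3p averaged 36385, 29560 and 14216 CPM of the summed 87806 CPM in controls. miR-42-3p, which fell by only 0.69 on the log2 scale, averaged 776 CPM there, so the ratio does not speak for each member. On the log2 scale the mean ratio was −2.99 ± 0.26 under cadmium and −3.06 ± 0.29 in controls (SD, n = 3 each), a difference of 0.07 that is smaller than either SD. Within groups the family varied more than miR-77-3p did, with coefficients of variation of its summed level of 26.3% under cadmium and 26.5% in controls.

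The other 9 fixed markers were miR-1-3p for muscle, lsy-6-3p, miR-124-3p and miR-791-3p for neurons, miR-60-3p for intestine, miR-240-3p and miR-786-3p for pharynx, gut and gonad, and the developmental timers lin-4-5p and let-7-5p. Of these, 0 were called in edgeR's test, with adjusted p-values from 0.126 to 0.858, against 45 of the 208 tested miRNAs (21.6%). At that share few calls fall among 9 markers, so the count of 0 does not show that these tissues were unchanged. Each marker was detected in all 6 libraries. The muscle marker miR-1-3p was at 214512 to 256441 CPM in cadmium and 155520.1 to 229630.2 CPM in control libraries. The summed neuron markers were at 108 to 134 CPM in cadmium and 102 to 131 CPM in control libraries, and miR-60-3p at 1491 to 1836 CPM in cadmium and 1518 to 2214 CPM in control libraries. These ranges overlapped between the groups.

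The miRNAs whose profile was most like that of miR-77-3p were found by centring each miRNA's log2(TMM CPM + 1) on its own mean and taking the root mean square difference over the 6 libraries. The closest was miR-40-3p, at 0.171, followed by miR-35-3p at 0.231, miR-39-3p at 0.290, miR-37-3p at 0.292 and miR-70-3p at 0.296. Of these 5, 4 (all but miR-70-3p) belong to the miR-35 family, as do 6 of the closest 10. The measure rests on 6 libraries in 2 clusters and follows the group difference that chose miR-77-3p, so it is a description of likeness in these libraries only. The closest, miR-40-3p, had 475, 738 and 507 CPM in cadmium libraries and 2159, 2516 and 2604 CPM in control libraries. The ratio of miR-77-3p to it was 5.58, 4.42 and 5.41 in cadmium and 4.34, 4.30 and 4.12 in control libraries. miR-40-3p was thus the single miRNA against which miR-77-3p was higher in all 3 cadmium libraries. The group means differed by 0.27 on the log2 scale, but the lowest cadmium ratio, 4.42, was barely above the highest control ratio, 4.34.

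**Figure D5:**
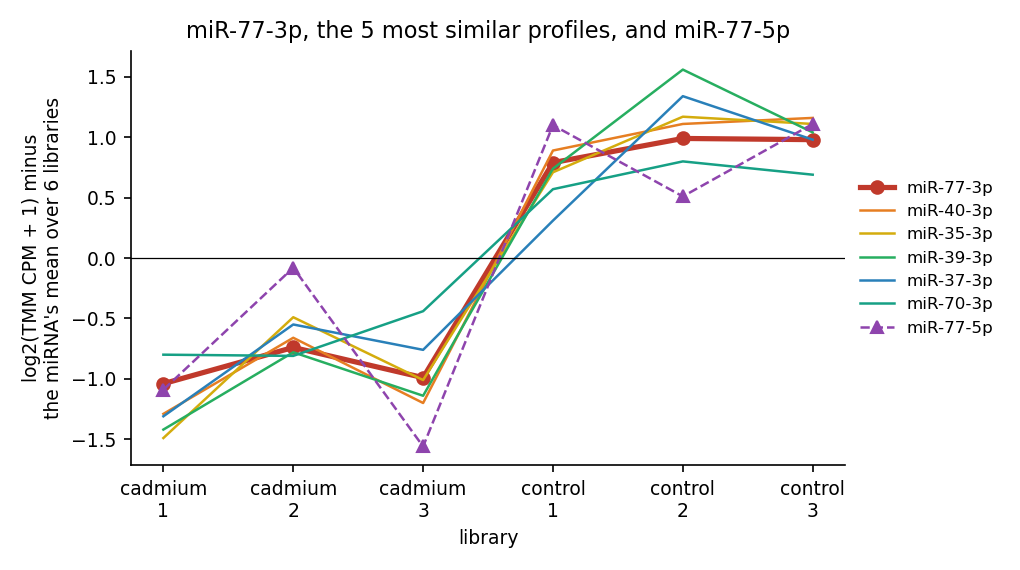
Log2(TMM CPM + 1) of miR-77-3p, of the 5 miRNAs with the most similar profile and of miR-77-5p in each library, less each miRNA's mean over the 6 libraries. Lines join the libraries of a miRNA and imply no order, and all 7 lie below 0 in the 3 cadmium libraries and above 0 in the 3 control libraries.

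miR-77-3p has no close neighbour among the expressed hairpins of chromosome II. The nearest annotated hairpins on either side are mir-4806, 172886 bases before it, and mir-267, 118766 bases after it, and neither had a product with enough counts to be tested. miR-267 had 0 counts in all 6 libraries, and the products of mir-4806 had at most 32 and 19 counts in a library. The nearest hairpins with a tested product are mir-44, 629149 bases before mir-77, and mir-4929, 942387 bases after it. miR-44-3p averaged higher in cadmium libraries, but missed the threshold (edgeR log2 fold change 0.57, SE 0.207, adjusted p 0.0656), and by its counts it cannot be told from miR-45-3p. miR-44-5p (0.09, SE 0.298, adjusted p 0.852 in edgeR) and miR-4929 (0.93, SE 0.390, adjusted p 0.113 in edgeR) were not called either. The cluster from mir-35 to mir-41 lies on the same chromosome and strand, 980863 bases before mir-77.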

How the data were processed

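The authors deposited read counts per mature miRNA and CPM values, 1 file of each per library. Per the file headers the values are counts and CPM, and the CPM were recomputed from the counts. Per the submitters' processing notes, the tools include cutadapt 3.4, Bowtie2 2.4.2 and the build WBcel235, and which step each served is not given in the sources used here, nor is the handling of reads matching several miRNAs. A further 12 columns of series-wide tables, whose names match no sample title, were not used.

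Counts were analysed in R 4.3.3 with edgeR 4.0.16 (filterByExpr, TMM, quasi-likelihood F test, two-sided, Benjamini-Hochberg over 208 miRNAs, threshold 0.05). Ratios used a prior count of 0.5, and arm ratios were fitted with limma 3.58.1. Library depth of 1640693 to 3917414 counts gives a floor of 3 counts at 0.761 to 1.60 TMM-scaled CPM. Intervals and floors cover counting error only. Other scalings, filters, limma on log2(CPM + 1) or (+ 0.1), DESeq2 1.42.0, single libraries left out and a replicate block were tried. The procedures were tested on simulated data in which the most abundant miRNAs were left unchanged, so changes among those were not covered.

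miR-77-3p and all lists were chosen with earlier results of these data known. Named beside it are its other arm, the nearest hairpins, 2 neighbours in level on each side, the 5 most similar profiles, the 3 most abundant miRNAs and the markers. miRNAs that share its seed are not analysed here.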

Additional observations from a re-analysis of the deposited data

How the results depend on the processing

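The log2 fold change of miR-77-3p was negative under all 15 alternatives. It moved by more than the replicate SD with library-total scaling (−2.03) and in limma, on log2(deposited CPM + 1) (−2.03) or + 0.1 (−2.03). These settings keep library totals, and in them the median of all tested miRNAs was −0.16, −0.19 and −0.20. The fall of miR-77-5p, −1.72, ran from −2.26 to −1.44 with single libraries left out (adjusted p at most 0.0313 in edgeR). The whole-table calls, 45 in all and 25 lower, ran from 22 to 49 and from 13 to 26 in those fits. Without the guide arms of the miR-35 family 16 were lower, where 8 fewer miRNAs were tested, and the change of miR-77-3p was −1.85. For the other differences the cause was not tested.

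Replicate numbers are shared between the groups, but libraries of the same number did not deviate alike (r of −0.057, −0.28 and −0.32 across 207 miRNAs). With replicate number as a block, the fit gave 17 calls, 10 of them lower, and −1.84 for miR-77-3p. For miR-77-5p the block gave −1.84 with an adjusted p of 0.0683, against 6.63e-06 to 0.0313 in the other settings.

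Group differences in the log2 ratio of miR-77-3p ran, with single libraries left out, from −0.30 to 0.33 against miR-77-5p and from −0.07 to 0.22 against the summed miR-35 family. Of the 5 most similar profiles, 4 were kept by Pearson correlation and 5 with deposited CPM. By correlation a miRNA outside the miR-35 family ranked 1st, miR-40-3p 2nd and miR-37-3p 7th. Levels and ranks moved by less than the replicate SD with deposited CPM or ranks among tested miRNAs. For miR-77-5p, counting error was at most 11.7%, in cadmium replicate 3 with 73 counts, and the replicate coefficient of variation under cadmium was 55.5%.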
